A study of Mus musculus with 16 samples.

Results

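The 10 genes described here mark or specify the projection neurons of the deep layers of the cerebral cortex, and they were chosen by name: Bcl11b, Fezf2, Tbr1, Foxp2, Tle4, Sox5, Etv1, Crym, Tshz2 and Pcp4. All 10 were found among the 18424 genes of the table and all 10 passed the filter on low values in every comparison. They were measured by bulk RNA-Seq of the medial prefrontal cortex (mPFC) of male mice at postnatal day (P) 120. The study gave fluoxetine, a selective serotonin reuptake inhibitor, early in life to wild-type (WT) mice and to mice heterozygous (HT) for a mutation of Arid1b, the gene of a BAF chromatin-remodeling subunit that is linked to autism and intellectual disability.

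There were 4 groups of 4 mice each. WT-Veh and HT-Veh were pups of dams that drank vehicle, 0.2% saccharin water, and WT-Flx and HT-Flx were pups of dams that drank 0.1 mg/ml fluoxetine in the same saccharin water, in each case from P3 to P21. HT mice came from 1 line with a germline, protein-truncating mutation in exon 5 made with a Cas9 nickase, so the mutation is not limited to a cell type. All groups were on the C57BL/6N background and came from HT fathers and WT mothers. The drug ended at P21, long before the tissue was taken. Values are normalized read counts, each averaged over 4 mice with its SD.

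In the cortex, neurons of layers 5 and 6 send axons out of the cortex, to the spinal cord, brainstem and thalamus, and to other cortical areas. Fezf2 acts upstream of Bcl11b (also called Ctip2) in neurons that project below the cortex, Tbr1 with Sox5 and Tle4 marks corticothalamic and subplate identity in layer 6, and these regulators repress each other's programs while the layers form. Etv1, Crym, Tshz2 and Pcp4 are used as markers of layer 5 or of its subtypes in the adult. Several of these genes are also transcribed outside the cortex, for example Bcl11b, Foxp2 and Pcp4 in striatal projection neurons, and Pcp4 in the olfactory bulb. These examples are not a full list.

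In the annotation of build GRCm38, Bcl11b (ENSMUSG00000048251) spans chr12:107910403-108003602 and Fezf2 (ENSMUSG00000021743) chr14:12342094-12348189, both on the minus strand. Tbr1 (ENSMUSG00000035033) spans chr2:61802930-61814114, Foxp2 (ENSMUSG00000029563) chr6:14901349-15441977, Etv1 (ENSMUSG00000004151) chr12:38779380-38870484, Tshz2 (ENSMUSG00000047907) chr2:169633013-170071816 and Pcp4 (ENSMUSG00000090223) chr16:96467606-96525793, all on the plus strand. Tle4 (ENSMUSG00000024642) spans chr19:14448150-14598051, Sox5 (ENSMUSG00000041540) chr6:143828425-144781977 and Crym (ENSMUSG00000030905) chr7:120186380-120202111, all on the minus strand. All 10 are protein-coding, and each value is a count over the whole gene.

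Promoter windows are shown for the pair of genes with the lowest p-values between genotypes, Pcp4 and Tshz2, and for Tle4, which has no match to the motif marked in the others. Each is the 250 bases before a RefSeq transcription start on build GRCm38.p6, 5′ to 3′ on the gene's strand, outside the annotated exons of that gene. Capitals mark the core of the T-box motif, AGGTG, or its reverse complement CACCT, searched on both strands. The core overlaps one form of the E-box, CAGGTG. The Pcp4 window is at chr16:96467356-96467605 (+), the Tshz2 window at chr2:169632259-169632508 (+), and the Tle4 window at chr19:14598184-14598433 (-).
Pcp4: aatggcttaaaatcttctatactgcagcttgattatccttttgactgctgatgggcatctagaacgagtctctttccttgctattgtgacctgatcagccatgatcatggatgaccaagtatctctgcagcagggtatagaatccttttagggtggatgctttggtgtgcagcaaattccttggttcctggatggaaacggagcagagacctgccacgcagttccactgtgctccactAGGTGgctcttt
Tshz2: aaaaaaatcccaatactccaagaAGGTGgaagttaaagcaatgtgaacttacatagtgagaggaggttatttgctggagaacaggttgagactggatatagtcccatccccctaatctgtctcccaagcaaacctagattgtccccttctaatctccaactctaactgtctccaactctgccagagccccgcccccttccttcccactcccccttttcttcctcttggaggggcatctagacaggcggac
Tle4: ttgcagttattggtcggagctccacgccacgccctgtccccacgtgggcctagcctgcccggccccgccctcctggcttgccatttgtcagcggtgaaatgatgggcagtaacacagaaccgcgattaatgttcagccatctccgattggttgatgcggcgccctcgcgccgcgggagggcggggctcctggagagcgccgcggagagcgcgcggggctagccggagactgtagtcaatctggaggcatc
The Pcp4 and Tshz2 windows each hold 1 match. Foxp2 and Crym are without a window here. Of 10 windows found for 8 of the genes, 5 hold the core, in Bcl11b, Fezf2, Tbr1, Tshz2 and Pcp4, while 46.0% of 32851 mouse windows of the same length hold it. The GC box GGGCGG is in 5 of the 10 windows, against 32.7% of all windows, and the SOX core AACAAT is in 3, against 9.42%. CCAAT is in 2 (33.8% of all), TATAAA in 1 (12.4%) and the FOX motif GTAAACA in 0 (3.17%). GC content was 46.8% in the Pcp4 window, 48.8% in the Tshz2 window and 65.2% in the Tle4 window, and the median of all windows was 52.4%. A match is a stretch of letters and not a measured site.

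The tissue label was checked first. Slc17a7, the vesicular glutamate transporter of cortical excitatory neurons, was between 32162 and 43463 normalized counts in all 16 mice, while Slc17a6, its thalamic counterpart, was between 201 and 488. In vehicle mice Arid1b was 2368 ± 432 (WT) and 1795 ± 160 (HT), and in fluoxetine mice it was 2159 ± 233 (WT) and 1636 ± 61.0 (HT; SD, n = 4 each). Genes typical of olfactory bulb neurons stood apart in 5 mice. Their score, the mean log2(value + 1) of 9 genes, was 9.61 in WT-Veh replicate 1, 7.34, 7.92 and 9.15 in WT-Flx replicates 1, 2 and 4, and 7.89 in HT-Veh replicate 4. The other 11 mice were between 4.34 and 5.21. Eomes, which marks mitral and tufted cells in the bulb, was 149 to 899 in those 5 mice and 0 to 25.3 in the 11. No HT-Flx mouse and 3 of 4 WT-Flx mice were among the 5, so this score moves with the comparison of HT-Flx and WT-Flx. The counts of members by direction, and the values that turn or move most, are also given without these mice or with the score in the fit. The share of all genes by direction was not computed for those fits, so these counts have no background beside them.

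Levels between genes were compared as normalized counts per kilobase of exon. The length was that of all annotated exons of a gene, from 1.03 kb in Pcp4 to 16.3 kb in Foxp2. Lengths of the transcripts expressed here were not used, so the order depends on the annotation. Pcp4, which encodes a small calmodulin-binding protein, had the highest level per kilobase, 3212 ± 659 (SD, n = 16), and exceeded Tbr1 in all 16 mice. Tbr1, a T-box transcription factor, followed with 751 ± 103 per kilobase and exceeded the next gene in all 16. Crym (249 ± 77.8), Fezf2 (240 ± 41.2), Bcl11b (231 ± 46.7), Tle4 (217 ± 24.3) and Etv1 (206 ± 23.8) formed a group in which each exceeded the next in only 7 to 10 of 16 mice, so neighbours in that order did not differ beyond their spread. Tshz2 (98.5 ± 13.0) and Sox5 (87.2 ± 17.1) came below them, Tshz2 being the higher in 13 of 16 mice. Foxp2, a forkhead factor, was lowest at 24.5 ± 6.46 per kilobase, below Sox5 in all 16.

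**Figure D1:**
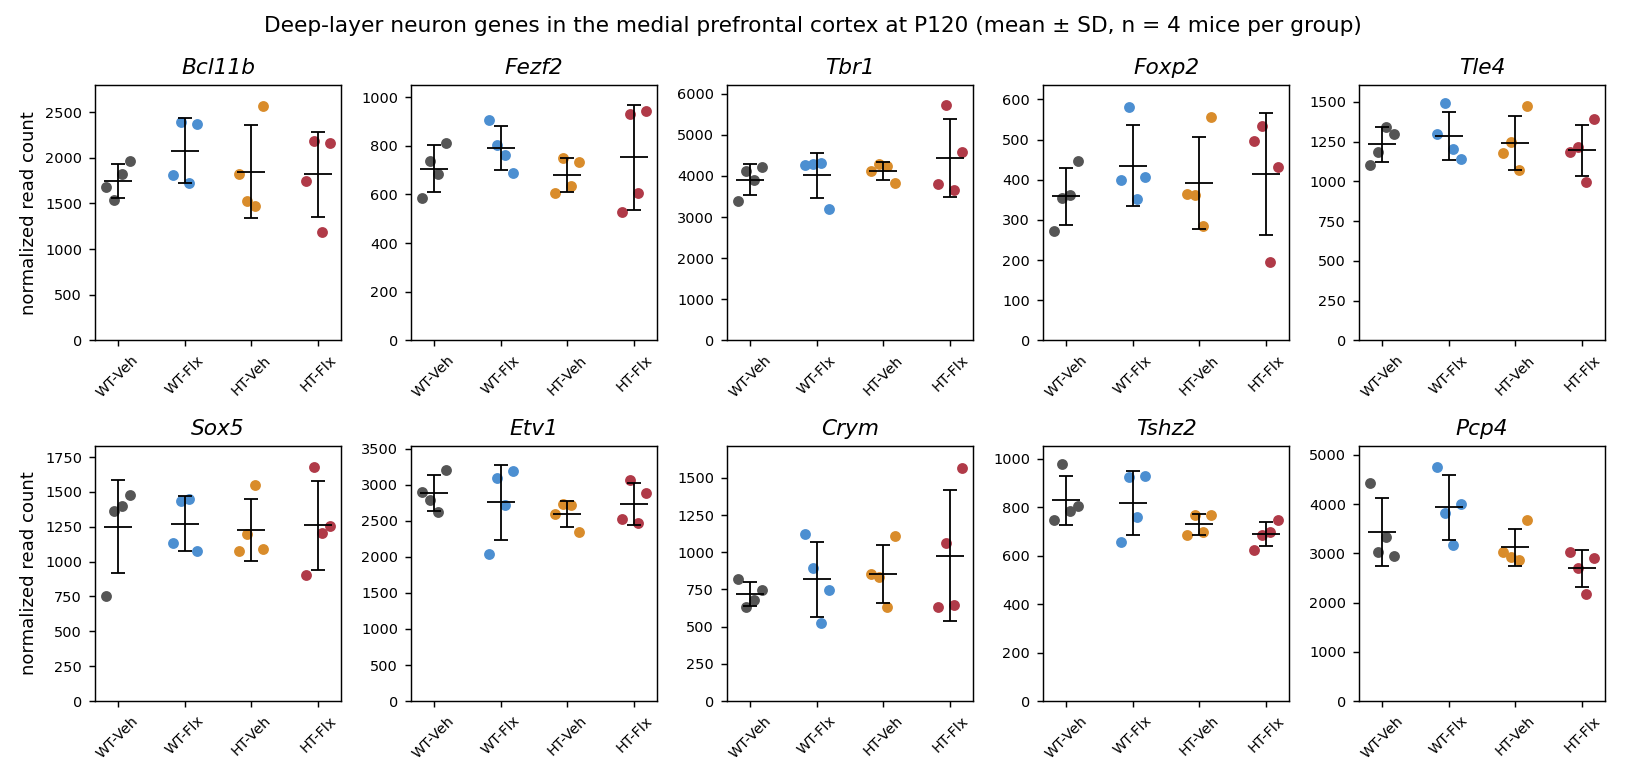
Normalized read counts (vertical axes, from 0) of the 10 genes in each mouse. Points are mice in replicate order, horizontal marks the group means and bars the SD (n = 4 mice per group). Pcp4 in HT-Flx lies below every WT-Flx mouse, and the groups overlap for the other genes.

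None of the 10 genes passed the test in any of the 7 comparisons (limma on log2(value + 1), Benjamini-Hochberg adjusted p under 0.05 over all genes tested). The comparison of HT-Veh with WT-Veh asks what heterozygosity does in the adult mPFC without drug. There 0 of 10 were called and 0 had an unadjusted p under 0.05, where 0.0178% and 4.88% of all 16832 genes were. No gene had groups without overlap (3.84% of all genes). Of the members, 4 of 10 had a negative log2 difference, as did 48.2% of all genes, and the median log2 difference was 0.0062 both for the 10 members and for all genes tested. Without the bulb-rich mice 8 of 10 were negative, with a median of -0.14 and Tshz2 the farthest from 0 at -0.25. The median of all genes in that fit was 0.00044. There 0 of 10 members and 11 of 16508 genes were called, and 1 member and 1798 genes had an unadjusted p under 0.05 in limma.

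Among the transcription factors of this comparison, Bcl11b was 1681, 1533, 1825 and 1965 in WT-Veh and 1825, 1529, 1469 and 2571 in HT-Veh. Its HT-Veh values spread over and beyond the WT-Veh range, with HT-Veh replicate 4 the highest. The log2 difference, HT-Veh minus WT-Veh, was 0.05 (95% confidence interval -0.32 to 0.41). Fezf2, the zinc-finger factor that specifies subcerebral neurons, had a log2 difference of -0.05 (-0.31 to 0.21), and Tbr1 one of 0.08 (-0.10 to 0.26). Foxp2 stood at 0.10 (-0.35 to 0.56), Sox5, an SRY-box factor that sets the timing of deep-layer neuron types, at 0.01 (-0.45 to 0.47), and the corepressor Tle4 at 0.01 (-0.23 to 0.24). For Tbr1 and Tle4 the intervals leave room for a difference of at most 0.26 log2 units either way, and for Foxp2 and Sox5 for much wider ones.

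Of the layer 5 markers, Crym, which encodes a thyroid hormone-binding protein, was 818, 634, 677 and 746 in WT-Veh and 852, 833, 630.2 and 1109 in HT-Veh. Of the HT-Veh mice, 3 lay above the WT-Veh range and 1 below it, with a log2 difference of 0.23 (-0.12 to 0.58). Etv1, an ETS-family factor of layer 5, had a mean of 2878 ± 249 in WT-Veh against 2594 ± 181 in HT-Veh, and its log2 difference was -0.15 (-0.33 to 0.03). Tshz2, a zinc-finger gene of near-projecting layer 5 neurons, stood at -0.18 (-0.39 to 0.04) and Pcp4 at -0.12 (-0.42 to 0.17). The adjusted p in limma was at least 0.922 for all 10.

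**Figure D2:**
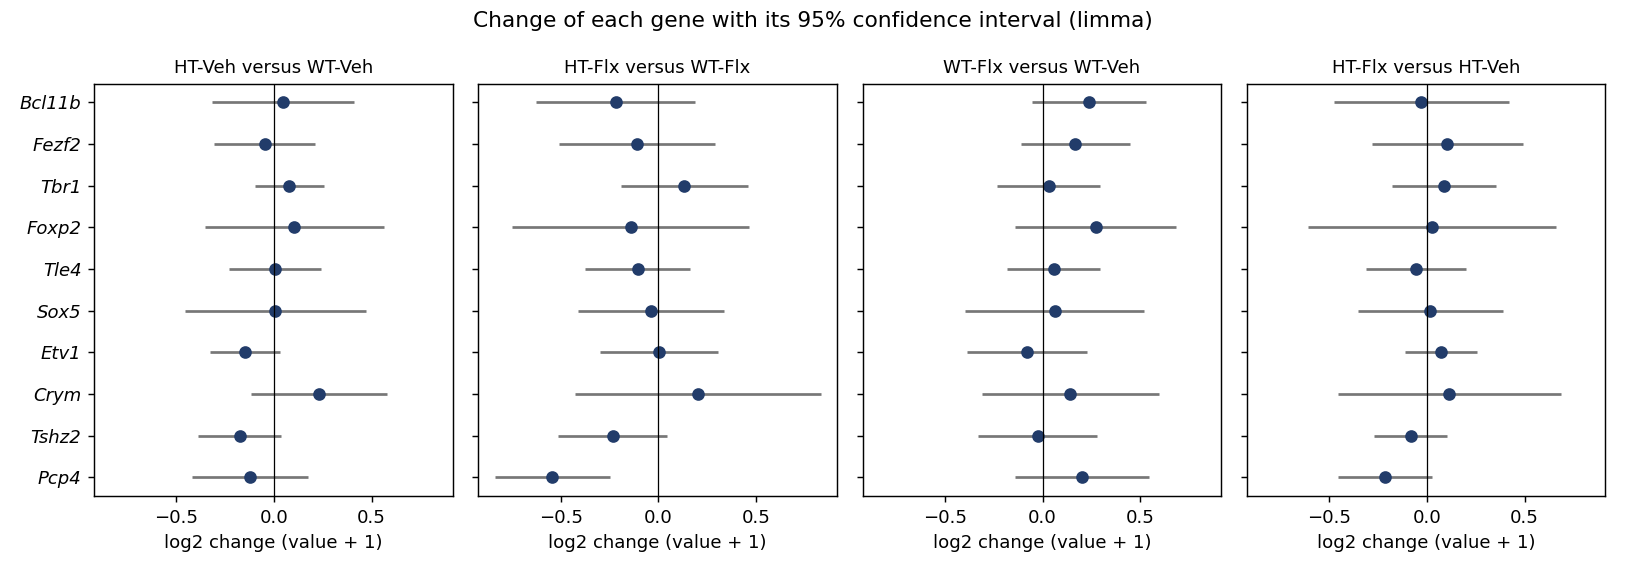
Log2 change (horizontal axis, on log2(value + 1)) of each gene in the 4 comparisons of a pair of groups, with points for the estimate and bars for its 95% confidence interval in limma. The interval of Pcp4 in HT-Flx versus WT-Flx, -0.84 to -0.25, is the only one of the 40 that does not cross 0.

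Pcp4 gave the lowest p of all the members, in the comparison of genotypes under early fluoxetine. It was 4761, 3809.8, 3166 and 4005 in WT-Flx and 3029.7, 2693, 2165 and 2896 in HT-Flx. All 4 HT-Flx mice were below all 4 WT-Flx mice, and the HT-Flx mean of 2696 ± 379.8 was 68.5% of the WT-Flx mean of 3936 ± 657. The log2 difference was -0.54 (SE 0.14), with an unadjusted p of 0.00178 and an adjusted p of 0.289 in limma, and the exact two-sided permutation test gave p = 0.0286, the smallest that 4 mice against 4 allow. Pcp4 was 1 of 10 genes without overlap between these groups, where 5.83% of all genes had none. It was also the 1 gene of 10 with an unadjusted p under 0.05, against 10.4% of all genes, and 0 of 10 were called, against 0.0417%. The shares of the members are near the background. In bulk tissue, fewer cells of a type and less RNA per cell cannot be told apart.

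The olfactory bulb score was 5.21 to 9.15 in WT-Flx and 4.34 to 5.12 in HT-Flx. With the score as a covariate the Pcp4 difference was -0.28 (SE 0.21, adjusted p 1.00 in limma). Without the 5 mice whose score was over 6 it was -0.24 (SE 0.18). That fit keeps WT-Flx replicate 3 alone in its group, assumed to vary like the HT-Flx mice, from which the spread is taken, and this mouse, at 3166, was still above every HT-Flx mouse. Over the other choices of processing and over each mouse left out, Pcp4 ranged from -0.64 to -0.42 log2 units, and its lowest adjusted p in any fit was 0.0926.

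The other members had log2 differences closer to 0 between HT-Flx and WT-Flx when all 8 mice were used. Tshz2 was 657, 924, 759 and 930.5 in WT-Flx and 625, 685, 699.5 and 748 in HT-Flx. Of the HT-Flx mice, 1 lay below the WT-Flx range and the rest inside it, with a log2 difference of -0.23 (-0.51 to 0.05). Bcl11b stood at -0.22 (-0.62 to 0.19), Foxp2 at -0.14 (-0.75 to 0.46), Fezf2 at -0.11 (-0.51 to 0.29), Tle4 at -0.11 (-0.37 to 0.16) and Sox5 at -0.04 (-0.41 to 0.34). Crym was 0.20 (-0.42 to 0.83), Tbr1 0.13 (-0.19 to 0.46) and Etv1 0.00 (-0.30 to 0.30). In all, 7 of 10 members had a negative log2 difference, against 48.4% of all genes. The median of the 10 was -0.11, and that of all genes tested was 0.0081. Several of these values turned with the bulb-rich mice. With the bulb score in the fit 6 of 10 were negative, and without those mice 5 of 10, with medians of -0.03 and -0.01. Bcl11b was 0.22 and 0.03 in those fits and Foxp2 0.27 and 0.14, both of the other sign. Crym was 0.69 and 0.80 (SE 0.45 and 0.43), then farther from 0 than Pcp4.

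Over both treatments together, HT against WT, 0 of 10 genes were called, against 0.0398% of 17567 genes, and 2 had an unadjusted p under 0.05, against 11.9%. Both had negative log2 differences, as did 8 of 10 members and 48.9% of all genes. The count was 6 of 10 with the bulb score in the fit and 8 of 10 without the bulb-rich mice. Pcp4 was 2908 in HT and 3683 in WT on average, with 5 of 8 HT mice below the lowest WT mouse, a log2 difference of -0.33 (SE 0.11, limma adjusted p 0.319) and p = 0.0188 in the exact permutation test within treatments. Tshz2 was 709.7 in HT and 823 in WT, with 1 of 8 HT mice below the WT range and 7 inside it. Its log2 difference was -0.21 (SE 0.08, limma adjusted p 0.387, exact permutation p = 0.0224). Tshz2 differed little when the bulb score entered the fit (-0.20) or when the 5 mice were left out (-0.21), while Pcp4 was -0.15 and -0.13 in those fits. Counting all comparisons except the interaction, 60 differences of members were tested by permutation and 3 had p under 0.05, the pair just given and Pcp4 between HT-Flx and WT-Flx, all unadjusted for their number.

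The effect of early fluoxetine was read in each genotype. In WT mice 0 of 10 genes were called, as were 0% of all genes, and none had an unadjusted p under 0.05 (4.20% of all) or groups without overlap (2.89%). Among the members, 8 of 10 had positive and 2 negative log2 differences, where 50.2% of all genes were negative, and the median was 0.10 against -0.00091 for all genes. The highest was Foxp2, which was 273, 354, 361 and 447 in WT-Veh and 399, 581, 352 and 407 in WT-Flx. Only WT-Flx replicate 2 exceeded the WT-Veh range, and the log2 difference was 0.27 (adjusted p 1.00 in limma). Bcl11b stood at 0.24, Pcp4 at 0.20 and Fezf2 at 0.17 in this comparison, and Etv1 at -0.08 and Tshz2 at -0.03. The bulb score was 4.63 to 9.61 in WT-Veh and 5.21 to 9.15 in WT-Flx, and the striatum score, over 10 genes of striatal projection neurons, was 6.01 to 8.21 and 7.27 to 8.37. With the striatum score in the fit Foxp2 stood at 0.11 and Bcl11b at 0.20, and with the bulb score Pcp4 stood at 0.06, Foxp2 at 0.33 and Fezf2 at 0.25. Without the bulb-rich mice, which leaves 1 WT-Flx mouse against 3 WT-Veh mice, Foxp2 was -0.13, Bcl11b -0.03 and Crym -0.39. The number of members with a positive difference was 8 of 10 with the bulb score in the fit and 4 of 10 without those mice.

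In HT mice the same drug comparison gave 0 of 10 called (0% of all genes), 0 with an unadjusted p under 0.05 (3.07%) and 0 without overlap (1.99%). Here 4 of 10 members had a negative log2 difference (48.8% of all genes), 3 of 10 without the bulb-rich mouse, and the members' median was 0.02, against 0.0030 for all genes. Pcp4 stood at -0.22 (-0.46 to 0.03) and Crym at 0.12, where the Crym values of HT-Flx were 632, 1063, 649 and 1567. HT-Flx replicate 4 held the highest Crym value of all 16 mice, and HT-Flx replicates 1 and 3 lay near the bottom of the HT-Veh range. Over both genotypes, Flx against Veh, 0 of 10 were called (0% of all genes) and 0 had an unadjusted p under 0.05 (3.11%), with log2 differences between -0.05 in Tshz2 and 0.15 in Foxp2, 3 of 10 of them negative (49.1% of all genes), or 5 of 10 without the bulb-rich mice.

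The interaction asks whether fluoxetine acted differently in the 2 genotypes. It was called for 0 of 10 genes (0% of all genes), and 0 had an unadjusted p under 0.05 (4.29%). Of the 10 estimates, 8 were negative, against 49.7% of all genes, and 3 without the bulb-rich mice. Pcp4 came closest, with -0.42 (SE 0.20, unadjusted p 0.0546, adjusted p 0.998 in limma). Its log2 difference between drug and vehicle was 0.20 in WT and -0.22 in HT. Without the 5 bulb-rich mice the Pcp4 interaction was -0.17, and with the bulb score in the fit it was -0.19.

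The members differed widely in how much they varied between mice of 1 group. The pooled SD within groups, on the log2 scale, was 0.442 in Foxp2, 0.431 in Crym, 0.336 in Sox5 and 0.313 in Bcl11b, and 0.163 in Tshz2, 0.174 in Tle4 and 0.184 in Etv1. Fezf2 (0.261), Pcp4 (0.227) and Tbr1 (0.200) lay between. The median over genes with a mean of at least 100 was 0.175, so 8 of the 10 members lay above it and Tle4 and Tshz2 below.

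Part of this variation followed scores of neighbouring tissue. In a limma fit of all 16 mice with group and the bulb score, Pcp4 was higher by 0.11 log2 units per unit of score (SE 0.02, adjusted p 0.00841) and Sox5 lower, at -0.13 (SE 0.04, adjusted p 0.0352). These are 2 of 10 members, where 12.6% of all genes had a called slope. Neither slope passed without WT-Veh replicate 1, the mouse with the highest score. Without this mouse the Pcp4 slope differed little, at 0.10 (adjusted p 0.239), and the Sox5 slope was closer to flat, at -0.07 (adjusted p 0.689). The Pcp4 slope passed in each of the other 15 fits that left out a mouse and the Sox5 slope in 9 of the 16. The other 8 members had slopes between -0.06 (Tbr1) and 0.11 (Crym) that did not pass.

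With the striatum score in place of the bulb score, 0 of 10 members had a called slope, where 0.171% of all genes did. Foxp2 came nearest at 0.36 (SE 0.07, adjusted p 0.0789), followed by Tle4 at 0.13 (adjusted p 0.610) and Bcl11b at 0.20 (adjusted p 0.979). The Foxp2 slope passed in 1 of the 16 fits that left out a mouse. With an oligodendrocyte score, 0 of 10 were called (0.290% of all genes), Foxp2 again coming nearest at 1.23 (SE 0.29, adjusted p 0.118) and passing in 1 of the 16 fits. The 3 mice with the lowest Foxp2, HT-Flx replicate 3 (196), WT-Veh replicate 1 (273) and HT-Veh replicate 3 (285), were also the 3 with the lowest striatum scores (5.90, 6.01 and 5.83).

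**Figure D3:**
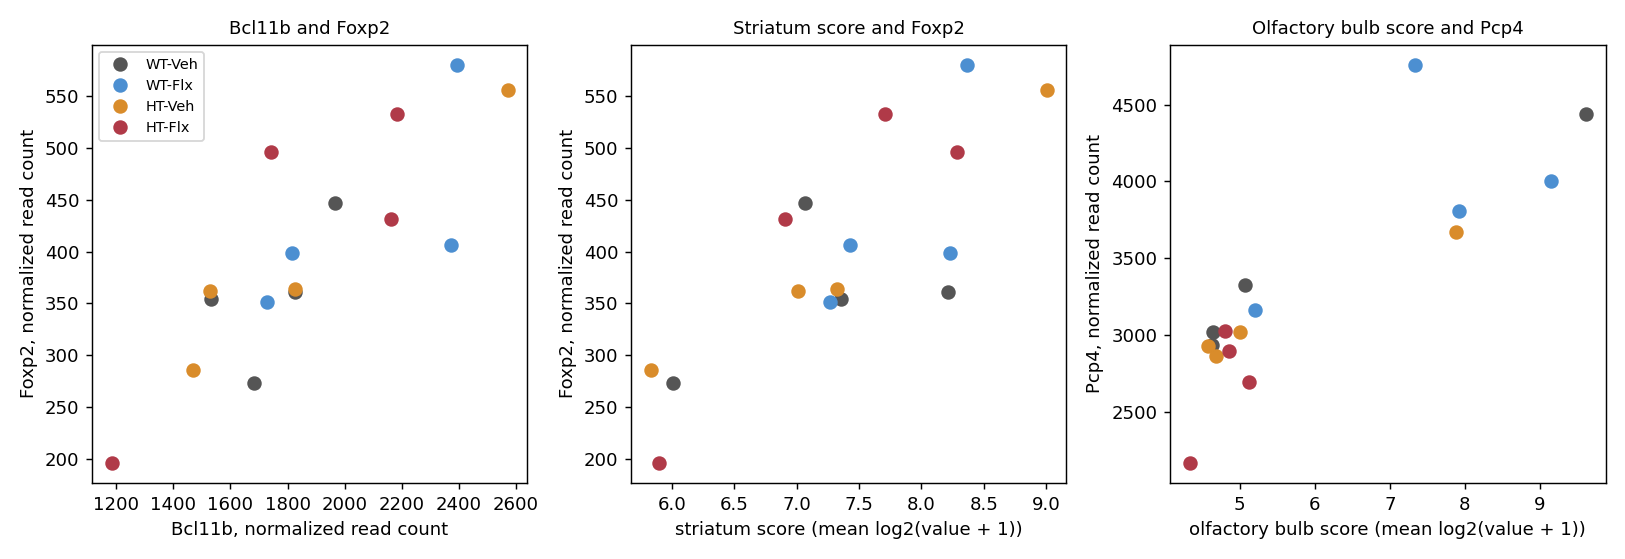
Each point is 1 of 16 mice, coloured by group. Left, Bcl11b against Foxp2 (normalized read counts, r = 0.852 on the log2 scale). Middle, the striatum score against Foxp2. Right, the olfactory bulb score against Pcp4, where the 5 mice with a score over 6 lie at 3673 or more and the other 11 at 3329 or less.

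Correlations of log2(value + 1) between members were computed over the 16 mice for all 45 pairs, with Pearson's r and Spearman's rho and permutation p-values adjusted over the 45. Of these, 37 had a positive r, and the median r was 0.279. Both measures passed for 2 pairs. The same counts were not computed for pairs of other genes, so they cannot be read as particular to the members. Bcl11b and Foxp2 had r = 0.852 and rho = 0.85 (permutation adjusted p 0.0027 for each), and r was 0.724 without the 2 mice farthest from the Bcl11b median, 0.851 on deviations from group means and 0.876 in the 11 mice with low bulb scores. Fezf2 and Tbr1 had r = 0.671 and rho = 0.803 (permutation adjusted p 0.0336 and 0.0063), with r = 0.680 without the 2 farthest mice, 0.764 on deviations and 0.773 in the 11 mice.

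Another 3 pairs passed by r alone. Foxp2 and Tle4 had r = 0.792 (permutation adjusted p 0.00607, 0.0505 for rho), Bcl11b and Tle4 r = 0.742 (0.0156 and 0.0696), and Tbr1 and Sox5 r = 0.689 (0.0336 and 0.0505). Without the 2 farthest mice r was 0.621, 0.532 and 0.683 for these pairs, and in the 11 mice with low bulb scores it was 0.701, 0.798 and 0.591. Bcl11b with Tbr1 gave r = 0.129 over the 16 mice and 0.648 in the 11, and Bcl11b with Sox5 0.043 and 0.198. The lowest r was -0.443, between Sox5 and Pcp4, and it was 0.0011 in the 11 mice. The mice share 1 dissection protocol and 1 normalization, and the part of striatal tissue in these correlations was not tested.

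**Figure D4:**
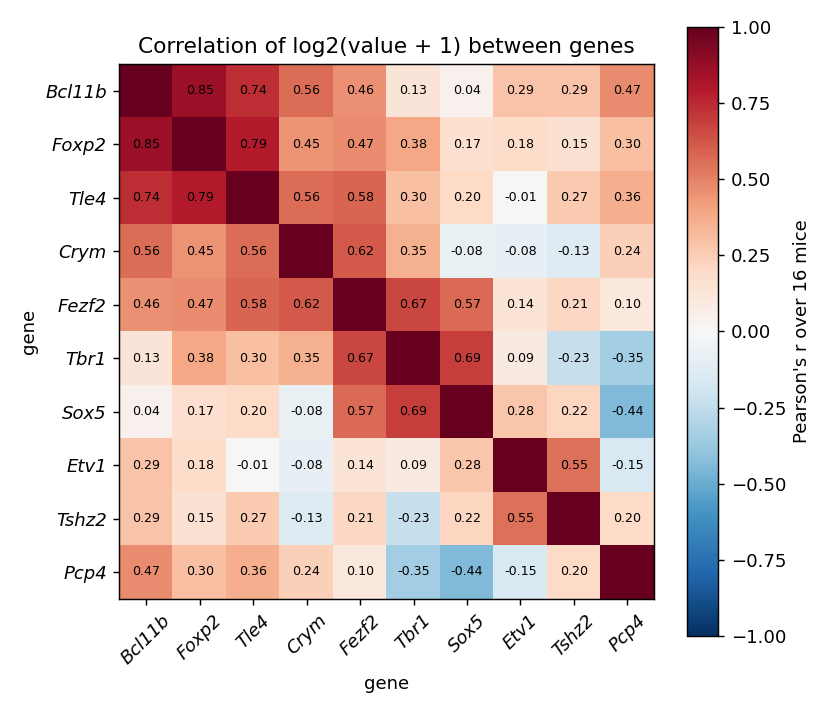
Pearson's r of log2(value + 1) over 16 mice for every pair of the 10 genes, from -1 (blue) to 1 (red). Bcl11b, Foxp2 and Tle4 form a block with r between 0.74 and 0.85, and Sox5 with Pcp4 has the lowest value, -0.44, which was 0.0011 in the 11 mice with low bulb scores.

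Over the 16 mice and 17567 genes, the gene most like each member by r was Mctp1 for Bcl11b (0.912), Psmd1 for Fezf2 (0.888), Zdhhc22 for Tbr1 (0.936), Smco3 for Foxp2 (0.853) and Hs3st4 for Tle4 (0.847). It was Sulf2 for Sox5 (0.868), Lancl3 for Etv1 (0.879), Fxyd6 for Crym (0.894), Gm3095 for Tshz2 (0.725) and Vdac2 for Pcp4 (0.923). In the 11 mice with low bulb scores the r of Vdac2 with Pcp4 was 0.685, and that of Hs3st4 with Tle4 was 0.944. These are descriptions of the highest of many values and carry no test. Foxp2 was also among the top 3 for Bcl11b and for Tle4, and Bcl11b among the top 3 for Foxp2. The top 3 for Tle4 also held Drd1 (0.809), above Foxp2 (0.792). For Foxp2 they also held Sh3rf2 (0.842), a gene of the striatum score. In the 11 mice these r were 0.687 for Drd1 with Tle4 and 0.768 for Sh3rf2 with Foxp2.

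Other genes of the same layers were read beside the members. None of 10 other layer 5 genes was called in any of the 7 comparisons. In HT-Veh versus WT-Veh the lowest p-values were those of Crim1, of corticospinal neurons (log2 difference 0.36), Slc17a8 (0.53) and Fam84b (-0.33), all with limma adjusted p of at least 0.872, and the list median was 0.11. Over both treatments Crim1 stood at 0.32 and Slc17a8 at 0.60, each with a limma adjusted p of 0.159, while Fam84b stood at -0.26. In that comparison 3 of the 10 layer 5 genes had negative differences (48.9% of all genes), and the list median was 0.10. An unadjusted p under 0.05 in limma was found for 5 of them, 3 higher and 2 lower in HT, against 11.9% of all genes. None of 10 other layer 6 genes was called either. Ntsr1, a receptor of corticothalamic neurons, was 132 ± 22.3 in WT-Veh and 203 ± 48.3 in HT-Veh (0.61), Oprk1 stood at 0.69 and Rprm at 0.29, with limma adjusted p of at least 0.899. These are the genes of the list with the lowest p in HT-Veh versus WT-Veh. In that comparison 6 of the 10 had negative differences (48.2% of all genes), and the list median was -0.08. In WT-Flx versus WT-Veh all 10 layer 6 genes had positive differences, with a median of 0.27, where 50.2% of all genes were negative. In HT-Flx versus WT-Flx 9 of 10 had negative ones (48.4% of all genes), with a median of -0.18, including Nxph4 at -0.88 (limma adjusted p 0.386). The mean log2(value + 1) of the list was 9.04, 8.93 and 8.96 in the bulb-rich WT-Flx mice and 8.60 in the other one, and 8.82 in the bulb-rich WT-Veh mouse and 8.49 to 8.56 in the others. Without the bulb-rich mice 5 of 10 were positive in WT-Flx versus WT-Veh (median -0.01) and 4 of 10 negative in HT-Flx versus WT-Flx (median 0.06).

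Of 8 regulators that act with the members, 0 were called. Bhlhe22, which patterns projection neurons by area, had the lowest p, with 904 ± 106 in WT-Veh and 1168 ± 103 in HT-Veh (log2 difference 0.37, limma adjusted p 0.872), and it stood at 0.28 over both treatments (adjusted p 0.244). Of 10 upper layer genes, 2 were called, in 1 comparison. Over both treatments Otof rose in HT by 0.74 (limma adjusted p 0.00556) and Wfs1 by 0.50 (adjusted p 0.0350). Both values include the bulb-rich mice, and values with the bulb score in the fit are not given for these genes. In that comparison 0 of 10 deep-layer members and 0.0398% of all genes passed. The lists were chosen with earlier results of these data known, so these 2 genes are no independent support. The difference between the 2 lists was not tested.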

How the data were processed

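Poly(A) RNA of the mPFC of 16 mice was sequenced as stranded paired-end libraries. The deposited values are a signal per gene: the authors mapped reads with Salmon 1.1.0 on GRCm38 with GC-bias correction, summed the estimates over each gene and normalized them with DESeq2 1.30.1 (versions from the submitters' processing notes). The values are not whole numbers and hold no depth, so no counting error is given and no count test was run. Column totals were 92.8% to 103.8% of their mean, and no 2 columns were identical.

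From these signal values, limma 3.58.1 (R 4.3.3, trend, two-sided) was run on log2(value + 1) over genes with at least 10 in at least 4 samples of the fit. Fold changes on this scale understate the change of low genes. Comparisons of a pair of groups used those groups, and the 3 others used all 16 mice. P-values were adjusted by Benjamini-Hochberg over all genes tested (threshold 0.05). The script was tested on simulated data. Exact permutation tests were run per member, within treatment or genotype for comparisons over both. Correlations used 100000 permutations. Mice, by the labels, are separate animals. Litters are not given, so p-values measure the spread between these mice.

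All 10 members are named, along with, for each other list, up to 3 genes with the lowest p in HT-Veh versus WT-Veh and up to 2 over all comparisons, and for each member its most alike genes by Pearson's r. The other lists were layer 5 genes, layer 6 genes, partner regulators, upper layer genes, excitatory neurons, GABAergic neurons, olfactory bulb, striatum, oligodendrocytes, and claustrum and subplate. The members and lists were chosen with earlier results of these data known. Of the 10 olfactory bulb genes, 9 matched the table. Alternatives were pseudocounts of 0.1 and 8, filters, scalings, sample weights, a replicate block, marker scores, and leaving out mice. The slopes on marker scores, the checks of the correlations and the counts by direction without the bulb-rich mice were added after seeing the data. Promoter windows come from RefSeq (GRCm38.p6), and gene positions and exon lengths from GENCODE on GRCm38.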

Additional observations from a re-analysis of the deposited data

Results flagged for a closer look

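In each group of 4 mice, the lowest and highest value of each member was compared with the group's range, over 40 groups, and 2 mice stood far from the rest of their group. Chance flags about 1 in 20 such groups. Tbr1 in WT-Flx replicate 4 was 3188, while the other 3 mice of the group were 4266, 4284 and 4316, so the gap took 0.955 of the range. Sox5 in WT-Veh replicate 1 was 755, while the others were 1365, 1402 and 1480.0, a gap of 0.842 of the range. These mice had the 2 highest olfactory bulb scores of the 16, 9.15 and 9.61. Whether the scores account for the low values of Tbr1 and Sox5 in single mice was not tested.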

How the results depend on the processing

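No member was called in any of 168 other fits. Of 1680 recomputed log2 differences of members, 1494 kept their sign and 186 changed it, all of them differences that were not called. Over all genes, the number called moved by more than 1.5 times: 3 in HT-Veh versus WT-Veh (0 to 19 in the alternatives, the most with the bulb score as covariate), 7 in HT-Flx versus WT-Flx (0 to 23, the most without WT-Flx replicate 3), 7 in HT versus WT over both treatments (1 to 23, the most with sample weights), 0 in WT-Flx versus WT-Veh (0 to 12) and 0 in the interaction (0 to 2). It was 0 throughout for HT-Flx versus HT-Veh and for Flx versus Veh, where 328 to 939 and 370 to 1106 genes had an unadjusted p under 0.05. The Pcp4 difference between HT-Flx and WT-Flx kept its sign in all 21 alternatives and lay between -0.64 and -0.44 when 1 mouse was left out. Leaving out 1 mouse still keeps bulb-rich mice in WT-Flx. Without all bulb-rich mice, which leaves 1 WT-Flx mouse, the difference was -0.24.

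The replicate numbers were not treated as pairs of mice in the reported fits. Correlations of deviations from group means between same-numbered mice ran from -0.23 to 0.31. They fell below 0.1 in every comparison of a pair of groups for at least 1 number. Mice with different numbers were not compared, so these correlations cannot exclude a pairing. With the replicate number as a block, 0 members were called in all 7 comparisons, the Pcp4 difference between HT-Flx and WT-Flx stayed at -0.54 with an adjusted p of 0.0996 in limma, and the genes called went from 3 to 0 in HT-Veh versus WT-Veh and from 7 to 5 in HT-Flx versus WT-Flx.

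The table holds no depth. With 4 mice a group, the intervals of Foxp2 and Sox5 in HT-Veh versus WT-Veh reach 0.56 and 0.47 log2 units. Bulk values do not separate layers or cell numbers, and the olfactory bulb score differs between the fluoxetine groups.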

Other observations

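Markers of broader classes were read in the same way, and 0 of each list were called by limma. Among 6 excitatory neuron genes, 0 had an unadjusted p under 0.05 in any comparison, and Camk2a, a kinase of excitatory neurons, stood at a log2 difference of 0.23 between HT and WT over both treatments (adjusted p 0.430). Of 8 GABAergic neuron genes, 7 had negative differences between HT-Flx and WT-Flx (48.4% of all genes), with a median of -0.40. Dlx5, a homeobox gene of interneurons, was 275 ± 164 in WT-Flx and 110.0 ± 14.0 in HT-Flx (-1.16, adjusted p 0.312). Lhx6 went the other way, at 0.40. The mean log2(value + 1) of the list was 9.74, 10.11 and 10.54 in the bulb-rich WT-Flx mice. It was 9.68 in WT-Flx replicate 3 and 9.40 to 9.65 in HT-Flx. All 9 olfactory bulb genes tested were negative in that comparison (median -2.64, smallest adjusted p 0.179), as were 9 of 10 striatum genes (median -0.60, smallest adjusted p 0.489) and 10 of 10 oligodendrocyte genes (median -0.26, smallest adjusted p 0.414).

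Nr4a2, a nuclear receptor of claustrum and subplate neurons, had the lowest p of the 3 claustrum and subplate genes. In WT mice it was 270.5 ± 82.9 with vehicle and 502 ± 53.6 with fluoxetine, and in HT mice 363 ± 176 and 283 ± 94.1 (SD, n = 4 each). Its log2 difference was 0.93 between WT-Flx and WT-Veh (limma adjusted p 0.976) and -0.88 between HT-Flx and WT-Flx (limma adjusted p 0.289). In the same comparisons Gnb4 stood at 0.40 and -0.15, and Ntng2 went the other way, at -0.07 and 0.21. These values include the bulb-rich mice.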
